A study of Mus musculus with 6 samples.

Results

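Transfer RNAs for glutamate and aspartate, encoded in the nucleus, were followed through small RNA libraries of hearts from Elac2 knockout and control mice. Members were all features of the authors' table typed as mature or precursor tRNA and named for glutamate (Glu) or aspartate (Asp), 50 of 30638 features in all. Of the 50, 12 are mature forms and 38 are precursors of single gene copies. Features carry the amino acid, the anticodon and a number: mature Glu-CTC-1 is the first sequence variant (isodecoder) with anticodon CTC, and precursor Asp-GTC-1-11 is the eleventh gene copy of isodecoder Asp-GTC-1. Aspartate has the anticodon GTC, with 4 mature forms and 16 precursors. Glutamate has CTC, with 5 mature forms and 14 precursors, and TTC, with 3 mature forms and 8 precursors.

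Knockout hearts came from 3 mice (titled L/L, cre, with the genotype label Elac2 -/-), in which a cre recombinase driven by the muscle creatine kinase promoter removed a loxP-flanked exon of Elac2. Control hearts came from 3 mice (titled L/L, without cre), whose genotype label reads Elac2 +/+ although the title gives floxed alleles. All 6 mice are of strain background C57BL/6 and the labels give no age. The cre acts in muscle cells, while RNA was taken from crude hearts and therefore from every cell type of the organ. Inserts of 15 to 100 nt were sequenced, so a read can be a whole tRNA or a fragment of one. In such bulk RNA, fewer cells of a type and less RNA per cell cannot be told apart.

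Nuclear tRNA genes are transcribed by RNA polymerase III into precursors with a 5′ leader and a 3′ trailer. RNase P removes the leader, and RNase Z, the product of Elac2, cuts the trailer in the nucleus and in mitochondria, after which CCA is added and the tRNA can be charged. Glutamate and aspartate tRNAs read the codons of the acidic amino acids, and 5′ fragments of Glu-CTC are a familiar abundant species in small RNA libraries of mammalian tissues.

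Libraries held 14505705, 15271036 and 14947237 counts in knockout replicates 1 to 3, and 13510061, 16248673 and 15951770 counts in control replicates 1 to 3. Features with at least 1 count numbered 2995 to 3160 in knockout and 4664 to 6018 in control libraries. All 7 cardiac and striated muscle miRNA genes used as markers were detected, and their summed level was 72669 to 93284 counts per 1000000 (CPM) in knockout and 117837 to 148037 CPM in control hearts. Of the 6 blood markers, 4 had a row and 1 of these was at 0, and the sum was 1010 to 1585 CPM in knockout against 575 to 1305 CPM in control hearts. The endothelial marker lay at 17620 to 20972 CPM in knockout and 19531 to 23763 CPM in control hearts, and the 2 smooth muscle markers summed to 22072 to 30035 against 26672 to 33574 CPM. Of 3 fibroblast markers 2 were at 0, and the other lay at 1233 to 1310 CPM in knockout against 637 to 878 CPM in control hearts. Of the 7 muscle markers 2 were called lower in knockout hearts, 1 higher and 4 neither, and the fibroblast marker was called higher. Of the 3 blood markers with counts 1 was called higher, and no endothelial or smooth muscle marker was called. The muscle sum, the fibroblast marker and 1 blood marker thus moved with genotype, and their part in the tRNA results was not tested. Elac2 mRNA was not analysed here.

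RefSeq (GRCm38.p6, the build of mm10) lists 36 nuclear glutamate and aspartate tRNA genes, 16 for Asp-GTC, 12 for Glu-CTC and 8 for Glu-TTC, each 72 nt long and spread over 12 chromosomes. The densest group lies on chromosome 1, where chr1:171037029-171103114 holds 9 of them in 66.1 kb, 5 for Asp-GTC and 4 for Glu-CTC, in the order Asp, Glu, Asp, Glu, Asp, Glu, Asp, Asp, Glu. RefSeq names these genes by another scheme than the files, so no position is given to a single feature. The nuclear sequences are not printed here. Mitochondria carry their own glutamate and aspartate tRNAs, mt-Te and mt-Td, which the same enzyme processes and which serve below as counterparts in the other compartment. Their sequences (GENCODE M21, GRCm38, without the added CCA, anticodon in capitals) are shown because mt-Te shares the anticodon of nuclear Glu-TTC and mt-Td that of nuclear Asp-GTC. The gene of mt-Te is chrM:14071-14139 on the minus strand (69 nt), and that of mt-Td is chrM:6942-7011 on the plus strand (70 nt).
mt-Te: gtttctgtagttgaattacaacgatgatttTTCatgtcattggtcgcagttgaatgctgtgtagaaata
mt-Td: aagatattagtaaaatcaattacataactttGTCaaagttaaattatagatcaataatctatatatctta

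Mature glutamate and aspartate tRNAs were lower in knockout hearts for each of the 3 anticodons. Glu-CTC fell 18.2-fold, Asp-GTC 4.17-fold and Glu-TTC 3.05-fold. In the fitted table, with tRNA copies summed, 52.6% of 998 rows were called, 25.8% lower and 26.9% higher in knockout hearts, with a median log2 fold change of 0.10. Mature Glu-CTC, which reads GAG codons, had 4780, 4095 and 2472 reads in knockout libraries and 70378, 90970 and 126454 reads in control libraries. All knockout libraries lay far below all control libraries. Scaled for library size this was 294 ± 82.5 CPM in knockout and 5345 ± 1196 CPM in control hearts (SD, n = 3 each), or -4.18 on the log2 scale (SE 0.25, adjusted p = 4.56e-08). Mature Glu-TTC, which reads GAA and by wobble GAG, had 2756, 2061 and 1989 reads in knockout libraries against 7391, 9003 and 12621 in control libraries (log2 fold change -1.61, SE 0.20, adjusted p = 2.21e-05). The groups did not overlap. Mature Asp-GTC, which reads both aspartate codons, had 428, 262 and 295 reads in knockout libraries against 1233, 2237 and 2330 in control libraries (log2 fold change -2.06, SE 0.24, adjusted p = 8.97e-06). The groups did not overlap here either.

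Among the other nuclear tRNAs, 44 mature anticodons were tested, of which 20 fell and 5 rose (median -0.51 on the log2 scale) over a range of -2.72 to 3.24. Glu-CTC had the lowest value of the 47 mature anticodons, Asp-GTC the sixth lowest and Glu-TTC the eighth lowest. Under 4 other scalings of library size the value of mature Glu-CTC ran from -5.12 to -3.75, that of Asp-GTC from -3.02 to -1.60 and that of Glu-TTC from -2.56 to -1.15, so the direction held in each.

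**Figure D1:**
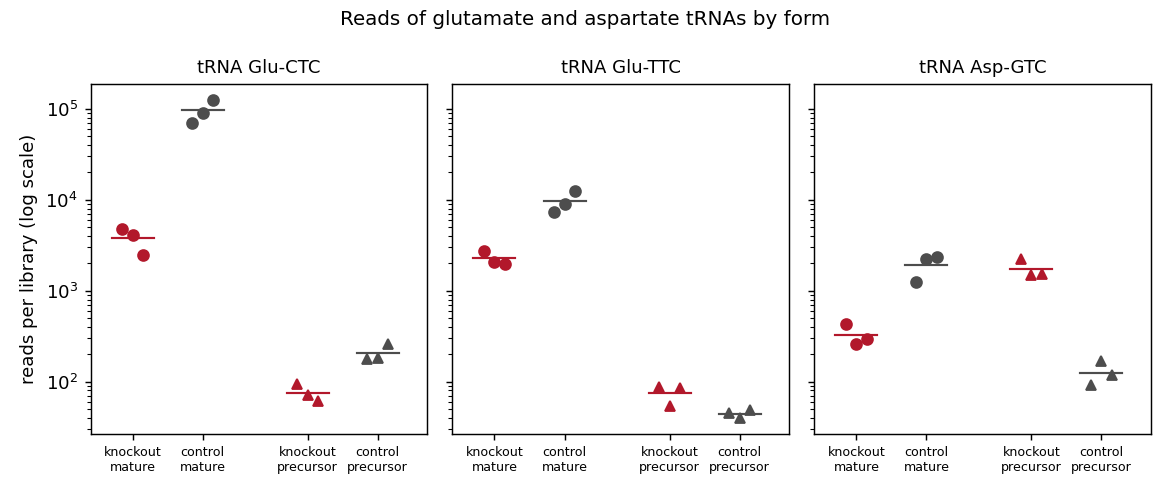
Reads per library (log scale) of tRNA Glu-CTC, Glu-TTC and Asp-GTC, with mature forms as circles and precursors as triangles, knockout in red left of control in grey. Each symbol is 1 of 3 libraries and each line is the group mean. Mature reads are lower in knockout libraries in all 3 panels, while precursor reads are higher for Asp-GTC (1504 to 2226 against 92 to 168), slightly higher for Glu-TTC and lower for Glu-CTC.

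As a part of the library, mature glutamate tRNAs made up 0.0520%, 0.0403% and 0.0298% of counts in knockout replicates 1 to 3 and 0.576%, 0.615% and 0.872% in control replicates 1 to 3. The mean share was 16.9 times lower in knockout hearts (0.0407% ± 0.0111 against 0.688% ± 0.161, SD, n = 3 each, exact two-sided permutation p = 0.1). Mature aspartate tRNAs made up 0.00221% ± 0.000651 in knockout and 0.0125% ± 0.00295 in control hearts, 5.65 times lower (exact p = 0.1, n = 3 each). With 3 against 3, 0.1 is the smallest p this test can give, and it was reached because the groups did not overlap. Mature nuclear tRNAs without glutamate and aspartate also took a smaller share, 0.409% against 2.64% of counts (6.46 times lower, exact p = 0.1, n = 3 each). Most of those reads were glycine tRNAs, and without these too the remainder was 2.19 times lower (0.123% against 0.269%, exact p = 0.1, n = 3 each).

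Within the mature tRNA pool, Glu-CTC was lower as well. It made up 7.34%, 7.65% and 2.97% of mature nuclear tRNA reads in knockout libraries, against 17.6%, 18.3% and 19.8% in control libraries (exact p = 0.1, n = 3 each). Knockout replicate 3 was the lowest, and no library of one group reached the other. Glu-TTC took the opposite course in this share, with 4.23%, 3.85% and 2.39% in knockout libraries against 1.84%, 1.81% and 1.98% in control libraries (exact p = 0.1, n = 3 each). Asp-GTC overlapped between the groups, at 0.5004% ± 0.152 in knockout and 0.374% ± 0.0713 in control hearts (exact p = 0.3, n = 3 each). Both shares are of a pool that was itself 7.39 times lower as a share of all counts, so neither shows a gain in reads. Without glutamate, aspartate and glycine tRNAs the pool was only 2.19 times lower, against 5.65 times for mature aspartate tRNAs. Glu-TTC was not set against that remainder. Relative to mature nuclear tRNAs other than those for glutamate, aspartate and glycine, the Glu-CTC ratio was 0.245, 0.228 and 0.142 in knockout libraries and 2.01, 2.15 and 2.78 in control libraries, 11.5-fold lower (exact p = 0.1, n = 3 each). Control hearts thus held more Glu-CTC reads than reads of all those other tRNAs together, and knockout hearts fewer.

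The pair of glutamate anticodons stood in different proportion in the groups. Mature Glu-CTC reads were 1.73, 1.99 and 1.24 times the Glu-TTC reads in knockout libraries, against 9.52, 10.1 and 10.02 times in control libraries. The control ratios lay close together and far above all knockout ratios. The mean ratio was 1.65 ± 0.378 in knockout and 9.88 ± 0.315 in control hearts, 6.08-fold lower on the mean of logs (SD, n = 3 each, exact p = 0.1), a value that does not depend on library scaling.

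Single mature features were tested in the full table, in which 50.2% of 1144 features were called, 27.0% lower and 23.2% higher, with a median log2 fold change of -0.01. Of the 12 mature members, 7 had enough reads to be tested, and all 7 were called lower in knockout hearts. A feature could pass the filter on its reads in 1 group alone, so such counts are a description. Counting those with too few reads too, the knockout mean was below the control mean for 12 of 12, and the groups lay apart, knockout lower, for 10 of 12. Among all tested features the groups lay apart for 63.0%, and in that direction for 33.7%. These shares leave out features with too few reads, which the 12 include.

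Glu-CTC-1 carried nearly all Glu-CTC reads, 98.5% ± 0.438 in knockout and 99.6% ± 0.00662 in control hearts (SD, n = 3 each). By reads it held rank 4, 4 and 5 among mature nuclear tRNA features in knockout replicates 1 to 3, and rank 2 in every control library. Its level was 282 ± 86.6 CPM in knockout and 5515 ± 1216 CPM in control hearts. This control value exceeds that of the Glu-CTC sum because the table of sums was scaled by factors of its own. The minor variant Glu-CTC-2 had 65, 33 and 43 reads in knockout libraries against 256, 327 and 482 in control libraries, 5.79-fold lower (log2 fold change -2.53, SE 0.29, adjusted p = 2.70e-05). Its groups were far apart, and Glu-CTC-1 itself was 19.6-fold lower (log2 fold change -4.29, SE 0.27, adjusted p = 5.52e-07). The difference between the pair was not tested. The rarer variants had up to 12 reads in a library and were not tested. Glu-CTC-4 had 3, 7 and 3 reads in knockout against 6, 12 and 9 in control libraries, Glu-CTC-5 had 2, 0 and 1 against 6, 6 and 7, and Glu-CTC-6 had 0, 2 and 0 against 4, 5 and 4.

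All 3 Glu-TTC isodecoders fell, and their proportions shifted. Glu-TTC-1 had 2122, 1558 and 1501 reads in knockout libraries and 4567, 5408 and 7427 in control libraries, 2.58-fold lower (log2 fold change -1.37, SE 0.20, adjusted p = 0.000188). Glu-TTC-2 had 497, 392 and 435 reads in knockout libraries and 2571, 3148 and 4689 in control libraries, 6.01-fold lower (log2 fold change -2.59, SE 0.22, adjusted p = 3.87e-06). Both were apart between the groups in every library. Glu-TTC-3 had 137, 111 and 53 reads in knockout libraries and 253, 447 and 505 in control libraries, 3.05-fold lower (log2 fold change -1.61, SE 0.33, adjusted p = 0.00160). As a share of Glu-TTC reads, Glu-TTC-1 stood at 77.0%, 75.6% and 75.5% in knockout against 61.8%, 60.1% and 58.8% in control libraries, and Glu-TTC-2 at 18.0%, 19.0% and 21.9% against 34.8%, 35.0% and 37.2%. Neither share overlapped between the groups, while that of Glu-TTC-3 did. No test was run on these shares.

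Aspartate has a main and a minor mature variant. Asp-GTC-1 had 396, 242 and 262 reads in knockout libraries and 1054, 1942 and 1988 in control libraries, 4.23-fold lower (log2 fold change -2.08, SE 0.25, adjusted p = 4.64e-05). Asp-GTC-2 had 32, 19 and 33 reads in knockout libraries and 176, 287 and 340 in control libraries, 7.28-fold lower (log2 fold change -2.86, SE 0.29, adjusted p = 1.09e-05). Asp-GTC-1 took 91.2% ± 2.10 of mature Asp-GTC reads in knockout and 85.9% ± 0.818 in control hearts, with no overlap. Asp-GTC-3 and Asp-GTC-4 had at most 6 reads in a library and were not tested, and Asp-GTC-4 had 0 reads in each knockout library against 3, 6 and 1 in control libraries. A count of 0 allows up to 0.207, 0.196 and 0.201 reads per 1000000 counts in knockout replicates 1 to 3, for counting error alone. Isodecoders differ at few bases, and no source used here says how multiply aligned reads were counted, so the division of reads among them is uncertain.

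**Figure D2:**
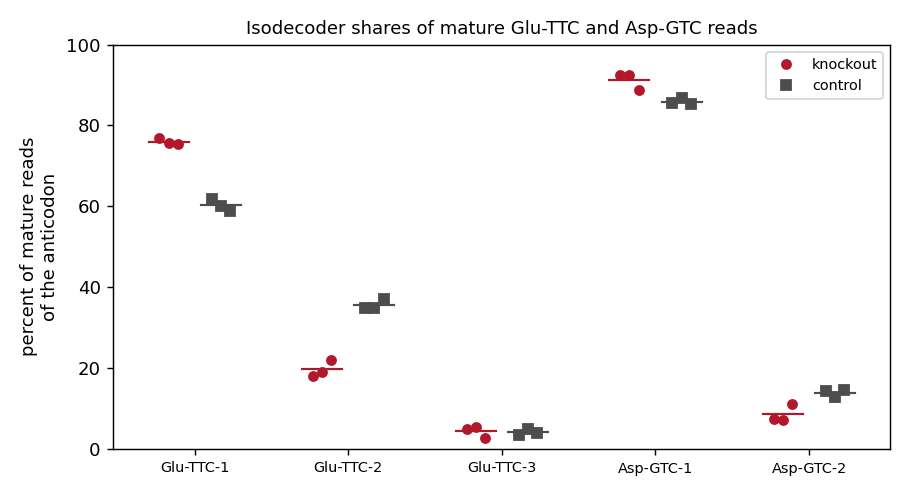
Percent of the mature reads of the anticodon taken by each isodecoder of Glu-TTC and by the 2 main isodecoders of Asp-GTC, in knockout (red circles) and control libraries (grey squares), with lines at group means. Glu-TTC-1 lies at 75.5% to 77.0% in knockout and 58.8% to 61.8% in control libraries, and Glu-TTC-2 at 18.0% to 21.9% against 34.8% to 37.2%.

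Precursors of the same tRNAs did not move as one. Asp-GTC precursors rose 19.5-fold, Glu-TTC precursors rose 2.32-fold, and Glu-CTC precursors fell 1.97-fold. Asp-GTC precursors had 2226, 1504 and 1524 reads in knockout libraries and 92, 168 and 118 in control libraries. All knockout libraries lay far above all control libraries. The level was 136 ± 25.9 CPM in knockout and 6.98 ± 1.35 CPM in control hearts (SD, n = 3 each, log2 fold change 4.28, SE 0.25, adjusted p = 3.90e-08). Glu-TTC precursors had 87, 54 and 85 reads in knockout libraries against 45, 40 and 49 in control libraries (log2 fold change 1.22, SE 0.28, adjusted p = 0.00228). Knockout replicate 2 stood only narrowly above control replicate 3. Glu-CTC precursors had 95, 72 and 61 reads in knockout libraries against 178, 183 and 261 in control libraries (log2 fold change -0.98, SE 0.24, adjusted p = 0.00432), again with no overlap.

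Only the aspartate value was called under each of the 4 other scalings of library size, where it ran from 3.33 to 4.71. That of Glu-TTC precursors ran from 0.26 to 1.68 and was not called with scaling by snoRNA genes (adjusted p = 0.410), and that of Glu-CTC precursors ran from -1.92 to -0.53 and was not called with scaling by snRNA and rRNA genes (adjusted p = 0.0819) or, at -0.70, without the filter on low counts (adjusted p = 0.0842). Of the 42 other precursor anticodons tested, 19 were called higher and 3 lower, and log2 fold changes ran from -3.56 to 3.06 around a median of 0.63. Asp-GTC had the highest value of the 45 precursor anticodons, Glu-TTC was the thirteenth from the top and Glu-CTC the fifth from the bottom. Precursor Asp-GTC made up 27.0%, 20.6% and 22.1% of all precursor tRNA reads in knockout libraries and 2.15%, 2.88% and 1.74% in control libraries (exact p = 0.1, n = 3 each). Precursor Glu-CTC took 1.01% ± 0.135 of precursor reads in knockout and 3.72% ± 0.524 in control hearts (exact p = 0.1, n = 3 each), and precursor Glu-TTC overlapped between the groups (1.01% ± 0.249 against 0.820% ± 0.202, exact p = 0.2, n = 3 each).

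One gene copy, Asp-GTC-1-11, supplied most of the aspartate precursor reads. It had 1898, 1280 and 1234 reads in knockout libraries and 20, 28 and 25 in control libraries. This put it at rank 1, 2 and 1 among all precursor tRNA features in knockout replicates 1 to 3, and at rank 40, 38 and 52 in control replicates 1 to 3. Its log2 fold change was 6.28 (SE 0.27, adjusted p = 1.02e-07), with 111 ± 23.9 CPM in knockout and 1.41 ± 0.145 CPM in control hearts, or 77.7-fold higher. Within the Asp-GTC precursors its share was 85.3%, 85.1% and 81.0% in knockout libraries against 21.7%, 16.7% and 21.2% in control libraries. Asp-GTC-2-1, the most read copy in control hearts, had 152, 106 and 145 reads in knockout libraries against 44, 86 and 35 in control libraries (3.15-fold higher, log2 fold change 1.66, SE 0.32, adjusted p = 0.00101).

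The other tested aspartate copies also rose, by smaller factors. Asp-GTC-1-1 had 19, 12 and 18 reads in knockout against 2, 4 and 5 in control libraries (5.60-fold higher, adjusted p = 0.000494), and Asp-GTC-1-4 had 19, 12 and 12 against 1, 4 and 3 (6.67-fold higher, adjusted p = 0.000620). Asp-GTC-1-6 had 53, 44 and 47 reads in knockout against 13, 22 and 26 in control libraries, and Asp-GTC-1-2 had 25, 16 and 19 against 4, 6 and 4, with log2 fold changes of 1.62 and 2.43 (adjusted p = 0.000497 and 0.000296). None of these 4 copies overlapped between the groups. Asp-GTC-1-5, Asp-GTC-1-3 and Asp-GTC-1-8 were not tested for lack of reads, with 6 to 24, 9 to 14 and 8 to 11 reads in knockout against 1 to 2, 0 to 6 and 2 to 3 in control libraries. The other 7 copies had at most 7 reads in a library, and Asp-GTC-3-1 had 0 in all 6. In all, 6 of the 16 copies were tested and 6 were called higher, where 23.2% of all tested features were. Asp-GTC-1-1, Asp-GTC-1-2 and Asp-GTC-1-4 had at most 6 reads in a control library and passed the filter on knockout reads alone. The count of calls is therefore a description. The knockout mean exceeded the control mean for 13 of 16, and the groups lay apart, knockout higher, for 10 of 16. Among all tested features the groups lay apart in that direction for 29.4%, a share that leaves out features with too few reads, which the 16 include. The sum without Asp-GTC-1-11, an alternative chosen after the values were seen, still gave a log2 fold change of 1.96 (adjusted p = 1.97e-05), far below the 4.28 of the full sum.

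**Figure D3:**
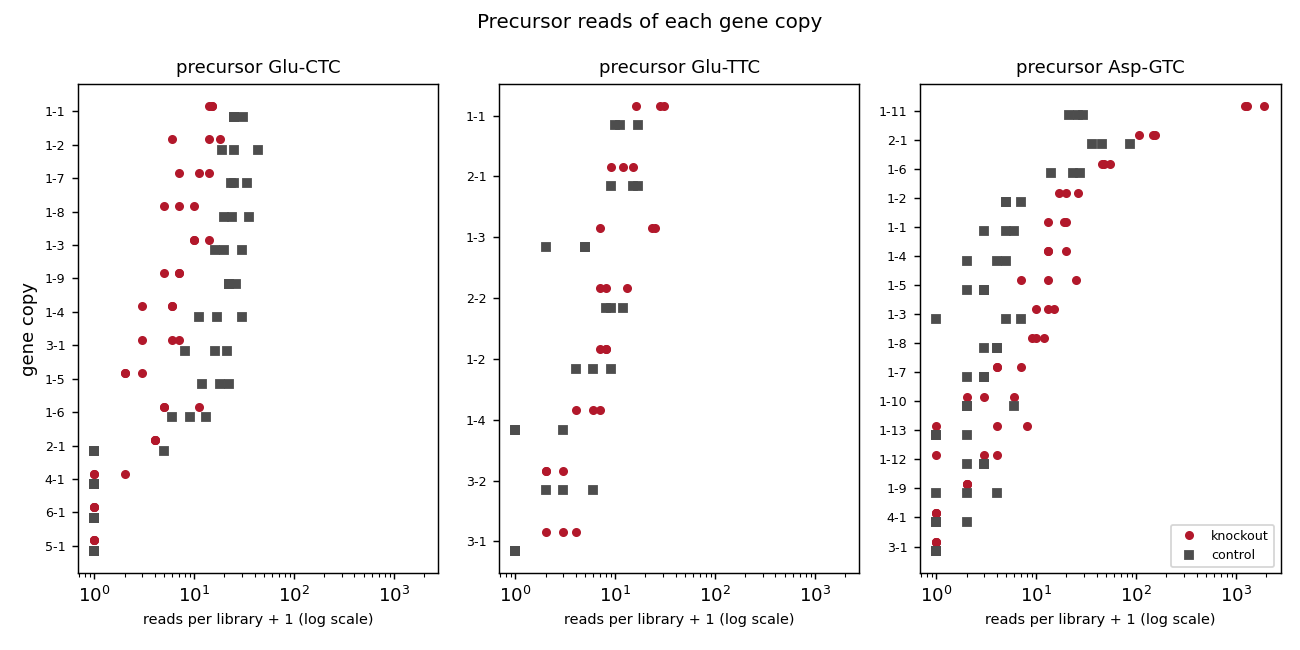
Reads per library plus 1 (log scale) for each precursor gene copy of Glu-CTC, Glu-TTC and Asp-GTC, ordered by total reads, with knockout libraries as red circles above control libraries as grey squares. Copy 1-11 of Asp-GTC stands alone, with 1234 to 1898 reads in knockout against 20 to 28 in control libraries, and most other Asp-GTC copies lie to the right in knockout libraries while most Glu-CTC copies lie to the left.

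Glu-TTC precursors were few and mixed. Glu-TTC-1-1 had 30, 15 and 27 reads in knockout libraries and 10, 16 and 9 in control libraries (2.63-fold higher, log2 fold change 1.40, SE 0.37, adjusted p = 0.00848). The raw reads of knockout replicate 2 lay below those of control replicate 2, and without control replicate 3 it was not called (log2 fold change 1.17, adjusted p = 0.0525). Glu-TTC-2-1 was the other tested copy and was not called, with 11, 8 and 14 against 14, 8 and 16 reads (log2 fold change 0.16, adjusted p = 0.754). Glu-TTC-1-3 had 22, 6 and 24 reads in knockout against 4, 4 and 1 in control libraries and was not tested. Glu-TTC-1-4 had 6, 3 and 5 against 0, 0 and 2, and Glu-TTC-3-1 had 3, 2 and 1 against 0 in each control library. Glu-TTC-2-2 (7, 12 and 6 against 7, 8 and 11), Glu-TTC-1-2 (7, 6 and 7 against 5, 3 and 8) and Glu-TTC-3-2 (1, 2 and 1 against 5, 1 and 2) overlapped in reads. After TMM scaling, the groups lay apart, knockout higher, for 5 of 8, against 29.4% of all tested features. Among these 5, Glu-TTC-1-1 and Glu-TTC-1-2 overlapped when reads were taken over library totals, so the count depends on the scaling. Of the 8, only 2 were tested, so the count and the share cover unlike sets.

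Of the Glu-CTC precursors, 7 copies were tested and 4 fell, where 27.0% of all tested features did. Among these 4, Glu-CTC-1-5, Glu-CTC-1-8 and Glu-CTC-1-9 had under 10 reads in each knockout library and passed the filter on control reads alone. The knockout reads of Glu-CTC-1-7, with 6 in replicate 2, would not have passed it either, so it too passed on control reads. The count of calls is therefore a description. Glu-CTC-1-5 had 2, 1 and 1 reads in knockout against 17, 11 and 21 in control libraries, 8.84-fold lower (log2 fold change -3.14, SE 0.56, adjusted p = 0.000591). Glu-CTC-1-9 had 6, 6 and 4 against 21, 21 and 25 reads (3.19-fold lower, adjusted p = 0.00244), and Glu-CTC-1-8 had 9, 6 and 4 against 23, 19 and 34 (3.05-fold lower, adjusted p = 0.00577). All 3 were apart between the groups. Without knockout replicate 3, Glu-CTC-1-8 was not called (log2 fold change -1.18, adjusted p = 0.0581). Glu-CTC-1-7 had 13, 6 and 10 against 22, 33 and 24 reads and was called only narrowly (log2 fold change -1.07, adjusted p = 0.0283). It was not called by DESeq2 (-1.10, adjusted p = 0.0753), with snRNA and rRNA scaling (-0.53, adjusted p = 0.306), without the filter (-0.70, adjusted p = 0.418) or in the authors' deposited table. Nor was it called without knockout replicate 1, 2 or 3 (-1.07, -0.59 and -0.89, adjusted p = 0.0714, 0.312 and 0.132) or without control replicate 2 (-0.94, adjusted p = 0.0890). Glu-CTC-1-1, with 13, 14 and 14 against 24, 24 and 30 reads, was not called (log2 fold change -0.55, adjusted p = 0.151). Nor were Glu-CTC-1-2, with 17, 13 and 5 against 24, 18 and 42 reads (-0.88, adjusted p = 0.125), and Glu-CTC-1-3, with 13, 9 and 9 against 15, 19 and 29 (-0.64, adjusted p = 0.158). Of the copies not tested, Glu-CTC-1-4 had 2, 5 and 5 reads in knockout against 16, 10 and 29 in control libraries, Glu-CTC-3-1 had 6, 5 and 2 against 7, 20 and 15, and Glu-CTC-1-6 had 10, 4 and 4 against 5, 8 and 12. Glu-CTC-2-1 had 3, 3 and 3 against 4, 0 and 0, Glu-CTC-4-1 had 1 read in all, and Glu-CTC-5-1 and Glu-CTC-6-1 had 0 in every library. In all, the knockout mean was below the control mean for 10 of 14 copies and above it for 2, and the groups lay apart, knockout lower, for 8 of 14, against 33.7% of all tested features. That share leaves out features with too few reads, which the 14 include.

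Over the 38 precursors, 15 were tested, of which 7 were called higher (6 of Asp-GTC and 1 of Glu-TTC) and 4 lower (all of Glu-CTC), against 23.2% higher and 27.0% lower in the table as a whole. As with the mature forms, a copy could pass the filter on its reads in 1 group alone, so these counts are a description. Without the filter on low counts 14 were called higher and 1 lower. In the authors' deposited table, 10 precursors were called higher and 3 lower, and 7 mature forms lower. The calls made here held the same sign for 7 of those 10, 3 of those 3 and 7 of those 7, and the other 3 higher precursors of the authors' deposited table had too few reads to be tested here.

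Precursor and mature reads were then compared within each library, where scaling cancels. For Asp-GTC the balance turned over: precursor reads were 5.20, 5.74 and 5.17 times the mature reads in knockout libraries and 0.0746, 0.0751 and 0.0506 times in control libraries. Precursors were thus 83.9%, 85.2% and 83.8% of all Asp-GTC reads in knockout libraries, against 6.94%, 6.99% and 4.82% in control libraries. The ratio was 81.2-fold higher in knockout hearts (exact p = 0.1, n = 3 each). Without copy Asp-GTC-1-11 the ratios were 0.766, 0.855 and 0.983 in knockout and 0.0584, 0.0626 and 0.0399 in control libraries, 16.3-fold higher, and mature reads were then the majority in all 6 libraries.

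For glutamate the precursor remained a small part. There were 19.9, 17.6 and 24.7 precursor reads per 1000 mature Glu-CTC reads in knockout libraries and 2.53, 2.01 and 2.06 in control libraries, 9.40-fold higher (exact p = 0.1, n = 3 each). For Glu-TTC there were 31.6, 26.2 and 42.7 per 1000 in knockout and 6.09, 4.44 and 3.88 in control libraries (exact p = 0.1, n = 3 each). The groups were apart for both. Glu-CTC precursors were thus lower in level, yet higher relative to their mature form, which was lower still.

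In one model over both forms, the change of the precursor minus that of the mature form was 6.35 on the log2 scale for Asp-GTC (SE 0.18, adjusted p = 5.21e-11), 3.22 for Glu-CTC (SE 0.22, adjusted p = 1.28e-07) and 2.81 for Glu-TTC (SE 0.22, adjusted p = 3.90e-07). Such a difference was called for 70.8% of the 48 anticodons with enough reads, and for 60.4% it favoured the precursor. Asp-GTC had the highest value of the 48, Glu-CTC was at rank 5 and Glu-TTC at rank 9. The other 45 anticodons had a median of 1.13 and a range of -3.02 to 4.90. Without copy Asp-GTC-1-11 the aspartate value was 4.03 (SE 0.20, adjusted p = 1.10e-08), inside that range. Reads that lie wholly within the mature part of a precursor cannot be assigned to either form by their sequence, and no source used here says how the authors' counting treated them.

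**Figure D4:**
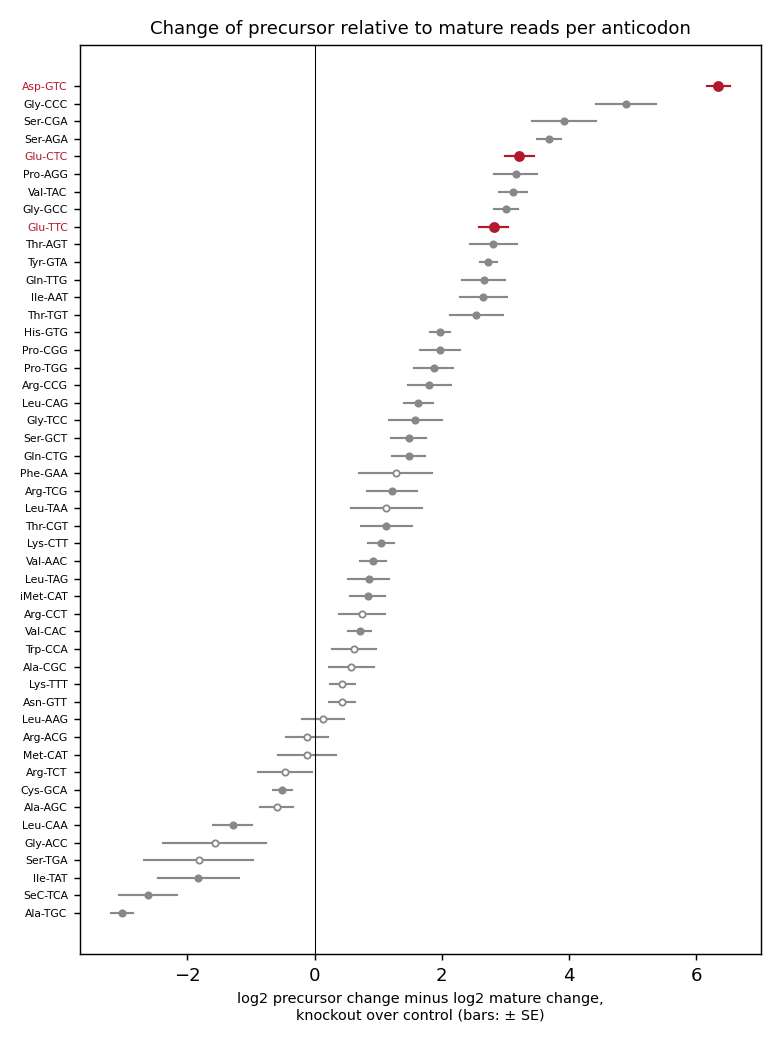
Log2 change of precursor reads minus log2 change of mature reads, knockout over control, for 48 anticodons, with bars of 1 SE, filled symbols for adjusted p under 0.05 and open symbols for the rest. Asp-GTC (6.35) stands apart at the top, and Glu-CTC (3.22) and Glu-TTC (2.81), also in red, lie among the upper anticodons.

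Other RNAs were read from a list of 8, made up of mitochondrial counterparts, Rpph1, Rmrp and other RNA polymerase III transcripts. Of these, 6 fell in knockout hearts (27.0% of all tested features did), 0 rose and 2, Rpph1 and Rmrp, were not called. The mitochondrial counterparts both fell. The sequence shown above as mt-Te was at 37.8, 32.7 and 24.0 CPM in knockout and 838, 1785 and 1644 CPM in control libraries (log2 fold change -5.50, SE 0.33, adjusted p = 4.51e-07). The level of mt-Td was 2.40, 1.11 and 1.28 CPM in knockout and 6.11, 19.6 and 12.6 CPM in control libraries, 7.95-fold lower (adjusted p = 0.000181). Both were apart between the groups. Glutamate and aspartate tRNAs were thus lower in their mature nuclear form and in mitochondria alike. The features of mt-Te and mt-Td are not split into mature and precursor forms. Rpph1, the RNA of nuclear RNase P, which cuts the 5′ leader, had a log2 fold change of 0.14 (adjusted p = 0.577), and the related Rmrp, the RNA of RNase MRP, one of 0.43 (adjusted p = 0.0691). Under the other scalings Rpph1 ran from -0.72 to 0.67 and Rmrp from -0.43 to 0.94, so neither had a fixed direction. Among other RNA polymerase III transcripts, the log2 fold changes were -4.80 for Rn7sk, -3.60 for Rny3, -2.14 for Rny1 and -1.51 for Vaultrc5 (adjusted p = 8.28e-07, 4.33e-06, 4.11e-06 and 0.00155). Mature Glu-CTC at -4.18 lay between Rn7sk and Rny3 in size, and precursor Asp-GTC at 4.28 ran opposite to all of them.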

How the data were processed

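Per the labels' protocols, RNA was isolated from whole hearts and libraries were selected for inserts of 15 to 100 nt. Each mouse had 4 technical replicates per the design text, and no source used here says how these were combined. Raw counts, deposited by the authors as 1 column per mouse, fed all tests. The authors' deposited comparison table, with a mean signal per feature (normalized counts averaged over libraries), log2 fold changes, a Wald score, p-values and adjusted p-values per the file headers, gave feature names, types and the calls cited. The submitters' processing notes name mm10, Bowtie2 (2.2.9), cutadapt (1.14), DESeq2 (1.16.1) and featureCounts (1.5.1). The sources used here do not give annotation, strand setting or the treatment of multiply aligned reads, so near-identical tRNA copies and antisense features are uncertain.

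Features were kept by filterByExpr (minimum count 10, minimum total 15), which left 1144 of 30638. Library sizes were scaled by TMM. The quasi-likelihood test of edgeR 4.0.16 (R 4.3.3) compared knockout with control, with Benjamini-Hochberg adjustment over the whole table and calls at an adjusted p under 0.05. Every adjusted p is from such a fit, except where DESeq2 is named. Sums per anticodon and form replaced the single tRNA features in a second fit. The third fit took both forms of 48 anticodons (at least 10 counts in each form) with mouse as covariate. Ratios (pseudocount 0.5) and shares were compared by exact two-sided permutation tests. The members, lists and tests were chosen with earlier results of these data known. Named features were all sums, features with a mean of at least 10 CPM in a group, and up to 3 called features per form, isotype and direction. Other features are named to account for every member, after their values were seen. Alternatives comprised other scalings, no filter, DESeq2 1.42.0, a replicate block, left-out libraries, another denominator, pseudocount or minimum count, and Asp-GTC precursors without copy 1-11. There were 0 columns of other samples. Floors cover counting error only. Each SE is the absolute log2 change divided by the square root of its F statistic, from a fit that includes variation between mice. Python 3.11.15, pandas 2.3.3 and matplotlib 3.10.9 made tables and figures.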

Additional observations from a re-analysis of the deposited data

How the results depend on the processing

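Over 20 summary and 22 single-feature results, 489 alternatives were computed, of which 194 and 263 kept the direction and the side of the threshold or stayed close to the reported value. For the shares and ratios, whose smallest exact p is 0.1, no alternative could cross the threshold, so only their direction could change. The exceptions follow, and the cause was not tested unless the setting itself gives it. Without the filter, in which 9254 features were tested, 14 precursors were called higher in place of 7 and 1 lower in place of 4. With total counts or snoRNA genes as scaling, 7 precursors were called lower. The Glu-CTC precursor sum was -0.53 (adjusted p = 0.0819) with snRNA and rRNA scaling and -0.70 (adjusted p = 0.0842) without the filter. The Glu-TTC precursor sum was 0.26 (adjusted p = 0.410) with snoRNA scaling. As a share of nuclear tRNA counts in place of all counts, mature Asp was 0.0770 percentage points higher in knockout hearts (exact p = 0.5, n = 3 each), and precursor Glu was 0.157 points higher (exact p = 0.1, n = 3 each), both against lower shares of all counts.

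Scaling moved the median log2 fold change of all features by -0.34 (total counts), -0.18 (miRNA), -0.84 (snoRNA) and 0.55 (snRNA and rRNA). Without the filter the median shift of shared features was 0.36. It was 0.21, 0.24 and 0.22 without knockout replicate 1, 2 or 3, and 0.017, -0.012 and -0.024 without control replicate 1, 2 or 3. Values from those settings carry this shift. With each library left out in turn, 7 mature members were called lower each time, 7 to 10 precursors higher and 3 to 5 lower. The sums ran from -4.39 to -3.80 for mature Glu-CTC and from 4.03 to 4.56 for precursor Asp-GTC. Among the 22 tested features, 12 alternatives ended a call, 7 of them for precursor Glu-CTC-1-7 as given with its values. The other 5 were precursor Glu-TTC-1-1 with snoRNA scaling (0.56, adjusted p = 0.190) and without control replicate 3 (1.17, adjusted p = 0.0525), Glu-CTC-1-8 without the filter (-1.26, adjusted p = 0.0760) and without knockout replicate 3 (-1.18, adjusted p = 0.0581), and Glu-CTC-1-9 without the filter (-1.32, adjusted p = 0.0799). Calls were added by 6 alternatives, for Glu-CTC-1-1, Glu-CTC-1-2 and Glu-CTC-1-3 with total-count and snoRNA scaling. The sign of uncalled values turned for precursor Glu-TTC-2-1 with total-count (-0.18), miRNA (-0.019) and snoRNA scaling (-0.69) and without control replicate 2 (-0.14), and for Glu-CTC-1-1 with snRNA and rRNA scaling (0.0050). Same-numbered mice did not deviate together (correlations of -0.134, -0.0163 and -0.192), so the numbers were not used as pairs. With the replicate block, 536 features were called in place of 574, and the member counts stayed at 7, 7 and 4. Low read numbers kept 23 of the 38 precursors from being tested.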
